A study of Homo sapiens with 16 samples.

Results

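SAOS cells given human RB were compared with untransfected SAOS cells, across the 19775 genes measured on an expression array. The comparison used the 4 arrays labelled as RB and the 4 labelled as control, 8 of the 16 arrays of the series, both with the replicate numbers 1, 3, 4 and 5. SAOS is an established human osteosarcoma line, derived from a bone tumour, that lacks functional RB. The control cells were labelled wild type with no transfection, and the RB cells received human RB by transient transfection. The other 8 arrays, 4 from cells given mouse SMYD2 and 4 from cells given RB and SMYD2, served to estimate the spread of each gene. SMYD2 is a lysine methyltransferase, and the study asked how its overexpression affects ectopic RB. The labels name no cells given an empty vector, so RB and the act of transfection cannot be told apart in this comparison. No source used here gives the share of cells that took up RB. The labels do not state that the 4 arrays of a group are separate cultures, and the p-values therefore reflect only how far these samples scatter, part of which could be technical.

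The retinoblastoma protein RB binds E2F transcription factors and, when it is not phosphorylated by cyclin-dependent kinases, holds back the genes they drive. E2F targets encode the enzymes of DNA replication and the cyclins that open S phase. Genes of mitosis are mostly controlled later in the cycle, through the MuvB core with MYBL2 and FOXM1, which acts at a promoter element called the CHR, often next to a CCAAT box bound by NF-Y. The RB relatives RBL1 and RBL2 join the same core in a repressor complex of resting cells. Cells of the osteoblast lineage, from which osteosarcoma arises, lay down collagen and other proteins of bone matrix.

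Genes of DNA replication and of mitosis fell together with RB, and a few histone genes were among those that rose most. With a limma fit that took the replicate number as a block, 1399 of the 19775 genes were called at an adjusted p under 0.05, which is 7.07% of all genes. RB was higher for 713 of them (3.61%) and lower for 686 (3.47%). Values are log2 signals and differences are RB minus control on that scale, so that a difference of 1 is a 2-fold change. Errors of differences are standard errors of the fit, with n = 4 arrays in each group. The called differences were mostly small, with a median of 0.42 for the genes that rose and -0.42 for those that fell (1.33-fold for both), against 0.01 over all genes. Differences of at least 1 were called for 19 genes that rose and for 1 that fell. Genes called lower were on brighter probe sets, with a median control level of 9.71 against 8.44 for those called higher and 6.85 for all genes. RB and control arrays did not overlap for 997 called genes, and they did not overlap for 1989 of all genes (10.1%).

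**Figure D1:**
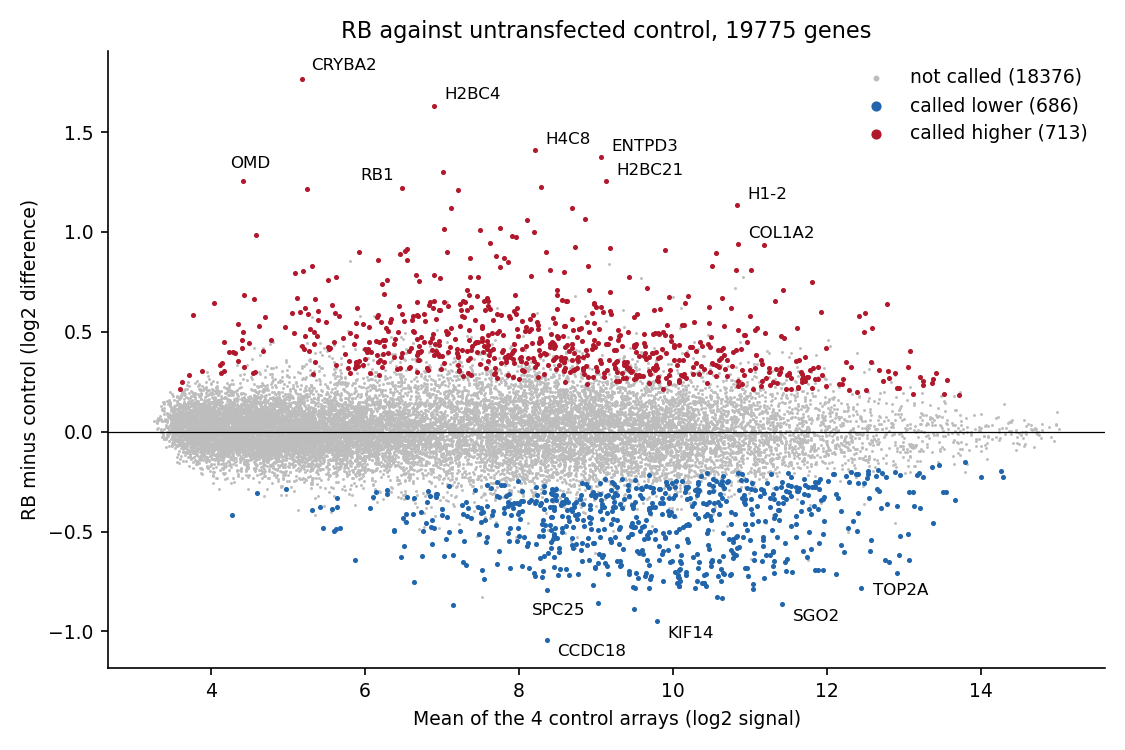
Difference of each gene between RB and control (log2, vertical axis) against the mean of the 4 control arrays (log2 signal, horizontal axis), 1 point per gene, with red for genes called higher, blue for genes called lower and gray for the rest. The largest differences are increases led by CRYBA2 at 1.77 and H2BC4 at 1.63, while the decreases lie among brighter genes and reach -1.04 at CCDC18.

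Promoter sequences are shown for 6 genes, E2F1 and RBL1 as targets of the kind bound by E2F, KIF23 and CDC20 as mitotic genes with a CHR, and H2BC4 and H2BC21 as the histone genes that rose. Each is the 250 bases before the RefSeq start of the gene in GRCh38.p14, 5′ to 3′ on the strand of the gene. Capitals mark matches on either strand to the E2F words TTTGGCGC, TTTGCCGC, TTTCGCGC and TTTCCCGC, the CHR word TTTGAA, the NF-Y word CCAAT and the octamer ATTTGCAT, an element known from histone promoters. The windows lie at chr20:33686386-33686635 and chr20:37095998-37096247 (minus strand), chr15:69414099-69414348 and chr1:43358731-43358980 (plus strand), and chr6:26123927-26124176 and chr1:149886683-149886932 (minus strand).
E2F1: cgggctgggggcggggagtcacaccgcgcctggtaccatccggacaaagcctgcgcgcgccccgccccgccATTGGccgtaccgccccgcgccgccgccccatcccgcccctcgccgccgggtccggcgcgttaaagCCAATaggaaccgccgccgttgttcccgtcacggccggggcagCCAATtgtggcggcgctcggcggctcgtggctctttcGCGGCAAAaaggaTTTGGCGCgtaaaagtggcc
RBL1: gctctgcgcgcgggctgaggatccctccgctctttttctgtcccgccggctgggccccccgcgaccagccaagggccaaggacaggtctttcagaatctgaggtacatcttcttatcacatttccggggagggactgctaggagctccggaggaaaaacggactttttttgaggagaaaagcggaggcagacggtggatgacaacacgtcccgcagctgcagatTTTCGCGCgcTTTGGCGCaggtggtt
KIF23: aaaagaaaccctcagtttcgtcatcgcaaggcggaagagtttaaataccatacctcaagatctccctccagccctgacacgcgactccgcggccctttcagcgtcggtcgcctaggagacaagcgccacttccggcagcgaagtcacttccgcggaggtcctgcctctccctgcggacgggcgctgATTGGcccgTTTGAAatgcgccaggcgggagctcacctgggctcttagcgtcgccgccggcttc
CDC20: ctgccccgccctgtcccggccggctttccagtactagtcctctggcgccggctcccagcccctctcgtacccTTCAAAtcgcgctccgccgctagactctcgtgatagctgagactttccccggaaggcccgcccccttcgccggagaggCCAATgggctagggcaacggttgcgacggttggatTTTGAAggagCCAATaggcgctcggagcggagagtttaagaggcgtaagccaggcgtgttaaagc
H2BC4: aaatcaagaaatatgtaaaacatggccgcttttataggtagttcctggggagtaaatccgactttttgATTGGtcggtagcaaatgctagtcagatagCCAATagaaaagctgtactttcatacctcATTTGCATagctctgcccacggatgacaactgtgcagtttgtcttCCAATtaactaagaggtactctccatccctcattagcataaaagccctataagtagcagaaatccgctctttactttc
H2BC21: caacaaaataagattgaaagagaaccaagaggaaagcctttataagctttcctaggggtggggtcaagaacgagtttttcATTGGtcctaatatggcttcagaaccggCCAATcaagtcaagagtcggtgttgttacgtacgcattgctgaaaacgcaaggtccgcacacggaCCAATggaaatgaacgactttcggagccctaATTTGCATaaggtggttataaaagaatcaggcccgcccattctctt
E2F1 and RBL1 each held a pair of E2F words in the last 33 bases before the start. In KIF23 the CHR word began 55 bases before the start and a CCAAT word on the minus strand began 64 bases before it. CDC20 held 1 CHR word on each strand and 2 CCAAT words. Both histone promoters held an octamer and 3 CCAAT words, and no E2F or CHR word. Other replication-dependent histone promoters did hold E2F or CHR words, with shares given below. In the promoters shown, 0 matches overlapped one another.

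Before the results, 3 features of the arrays bear on their size. RB1 on the array checked the labels, and its brighter probe set read 6.24, 6.49, 6.27 and 6.93 in control arrays 1, 3, 4 and 5 and 7.40, 7.43, 8.10 and 7.87 in the RB arrays of the same numbers. The groups did not overlap, and RB1 was higher by 1.22 ± 0.22 (p = 0.0286 in an exact permutation test, two-sided, which cannot give a smaller one with 4 arrays a group). The dimmer RB1 probe set differed by -0.05 and did not show the construct (exact permutation p = 0.2). Deviations of same-numbered RB and control arrays from their group means correlated over genes at 0.424, 0.416, 0.207 and 0.188 for the numbers 1, 3, 4 and 5. For numbers 4 and 5 this was not the closest match, since control array 5 correlated with RB array 4 at 0.315. Pair 1 matched the other pairs least. When numbers 3, 4 and 5 were fitted alone, the genes called higher had a median of 0.40 there and of 0.18 in the pair left out, and those called lower of -0.40 and -0.30. Of all genes called, 84.6% had the same sign in pair 1, against 56.8% of all genes. Leaving out pair 3, 4 or 5 instead gave the same sign in 97.3%, 98.3% and 98.8% of the genes called, against 61.0%, 64.7% and 61.1% of all genes. These fits called 745, 346 and 597 genes, against 1996 without pair 1. Their fitted medians were larger, at 0.54, 0.62 and 0.53 for genes called higher and -0.54, -0.59 and -0.55 for those called lower. The shares are therefore of unlike sets of genes. The gap between the 3′ and 5′ probe sets of ACTB, a measure of RNA quality, was 2.46 in control array 1 and 1.63 in RB array 1, against 0.54 to 1.07 in the other 6 arrays compared, and 3.53 in SMYD2 array 1. The same gap for GAPDH was not larger there, at 0.06 in control array 1 and 0.03 in RB array 1. It was 0.07 to 0.10 in the other 6 arrays compared, and 0.16 in SMYD2 array 1. Without SMYD2 array 1 the fit called 2141 genes instead of 1399, and without RB array 4, which moved the count down most, 727. The part of RNA quality in these counts was not tested.

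In the E2F family, 4 of 10 measured E2F and DP genes fell and 6 did not pass. The activator E2F1 read 9.35, 9.23, 9.29 and 9.23 in the control arrays and 8.82, 8.73, 8.78 and 8.999 with RB. All 4 RB arrays were below all 4 control arrays, a fall of 0.44 ± 0.08 (adjusted p = 0.0026), and the second probe set of E2F1 differed by -0.43. E2F2, another activator, fell by 0.53 ± 0.11. The repressors E2F7 and E2F8, themselves known E2F targets, fell by 0.70 ± 0.13 and 0.69 ± 0.15. The members that did not pass ranged from -0.25 to 0.06.

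Among 10 measured pocket proteins, MuvB subunits and their partners, 4 fell and RB1 rose. FOXM1, the transcription factor of the G2 and mitotic genes, read 9.91, 9.99, 10.16 and 10.17 in control and 9.19, 9.39, 9.28 and 9.34 with RB, with a gap between the groups. It fell by 0.76 ± 0.10 (adjusted p = 0.00028). MYBL2, which joins MuvB in S phase, fell by 0.59 ± 0.10, and the MuvB subunit LIN9 by 0.48 ± 0.09. RBL1, the RB relative whose promoter is shown above, fell by 0.62 ± 0.11 in its brightest probe set, while its 3 dimmer sets differed by -0.03, 0.04 and 0.11. For RBL2 both probe sets were near 0, at -0.004 and -0.13 (exact permutation p = 1 and 0.543).

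Replication genes fell from licensing to nucleotide supply. Of 27 measured genes of origin licensing and the replicative helicase, 21 fell and 6 did not pass, with a median of -0.50. The count of 21 was 14 without the block and 16 without control array 5. MCM7, a subunit of the MCM helicase, read 11.05, 11.13, 11.20 and 11.27 in control and 10.51, 10.42, 10.51 and 10.60 with RB, so that the groups lay well apart. It fell by 0.65 ± 0.09 (adjusted p = 0.00029). CDT1, which loads the helicase, fell by 0.67 ± 0.09, and ORC1 of the origin recognition complex by 0.66 ± 0.10. MCM10, which helps to start the helicase, fell by 0.70 ± 0.17 (adjusted p = 0.0174), but its call was lost without the block (adjusted p = 0.205) and with 5 of the 16 arrays left out, at most without RB array 4 (adjusted p = 0.0829).

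At the fork itself, 25 of 31 measured genes of polymerases, clamp and chromatin assembly fell, with a median of -0.48 (16 without the block). WDHD1, which ties polymerase alpha to the helicase, fell by 0.73 ± 0.09. CHAF1A and ASF1B, chaperones that place histones behind the fork, fell by 0.71 ± 0.10 and 0.65 ± 0.10, and a dimmer CHAF1A probe set differed by 0.035. Of 19 genes of nucleotide supply, 7 fell and 12 did not pass. Those that fell included the ribonucleotide reductase genes RRM1 by 0.54 ± 0.09 and RRM2 by 0.60 ± 0.12, thymidylate synthase TYMS by 0.62 ± 0.09, thymidine kinase TK1 by 0.68 ± 0.11 and the dUTPase gene DUT by 0.38 ± 0.06. TYMS read 12.81, 12.94, 13.01 and 12.997 in control and 12.34, 12.36, 12.25 and 12.35 with RB, among the brightest genes that fell.

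Of 20 measured genes of cyclins, their kinases and the regulators of those kinases, 14 fell and 1 rose. Cyclin A2, CCNA2, which acts from S phase into mitosis, read 10.26, 10.43, 10.55 and 10.49 in control and 9.75, 9.92, 9.62 and 9.60 with RB. The groups were apart and CCNA2 fell by 0.71 ± 0.13 (adjusted p = 0.0025). The mitotic cyclin CCNB2 fell by 0.71 ± 0.16, a call lost with 2 of 16 arrays left out (adjusted p at most 0.0514, without control array 1), and the inhibitory kinase WEE1 by 0.51 ± 0.10. Cyclin D1, CCND1, which acts upstream of RB, was the 1 that rose, by 0.60 ± 0.14 (adjusted p = 0.0159). It was chosen for mention after its values were seen. Its call was lost without the block (adjusted p = 0.178) and with 4 of 16 arrays left out (adjusted p at most 0.0720, without RB array 3), and its signal was dim, at 5.00 to 5.54 in control.

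Of 7 measured genes of CDK inhibitors, 1 rose and 2 fell. CDKN2B encodes p15, an inhibitor of the cyclin D kinases, and read 7.57, 8.12, 7.95 and 7.78 in control and 8.73, 9.10, 8.58 and 8.41 with RB. Every RB array was above every control array, with a rise of 0.85 ± 0.13 (adjusted p = 0.00061). CDKN3, a phosphatase that acts on cyclin-dependent kinases, fell by 0.71 ± 0.08 (adjusted p = 9.3e-05). CDKN2D fell by 0.35 ± 0.09 (adjusted p = 0.0287), a call lost without the block (adjusted p = 0.231) and with 7 of 16 arrays left out (adjusted p at most 0.132, without control array 4).

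**Figure D2:**
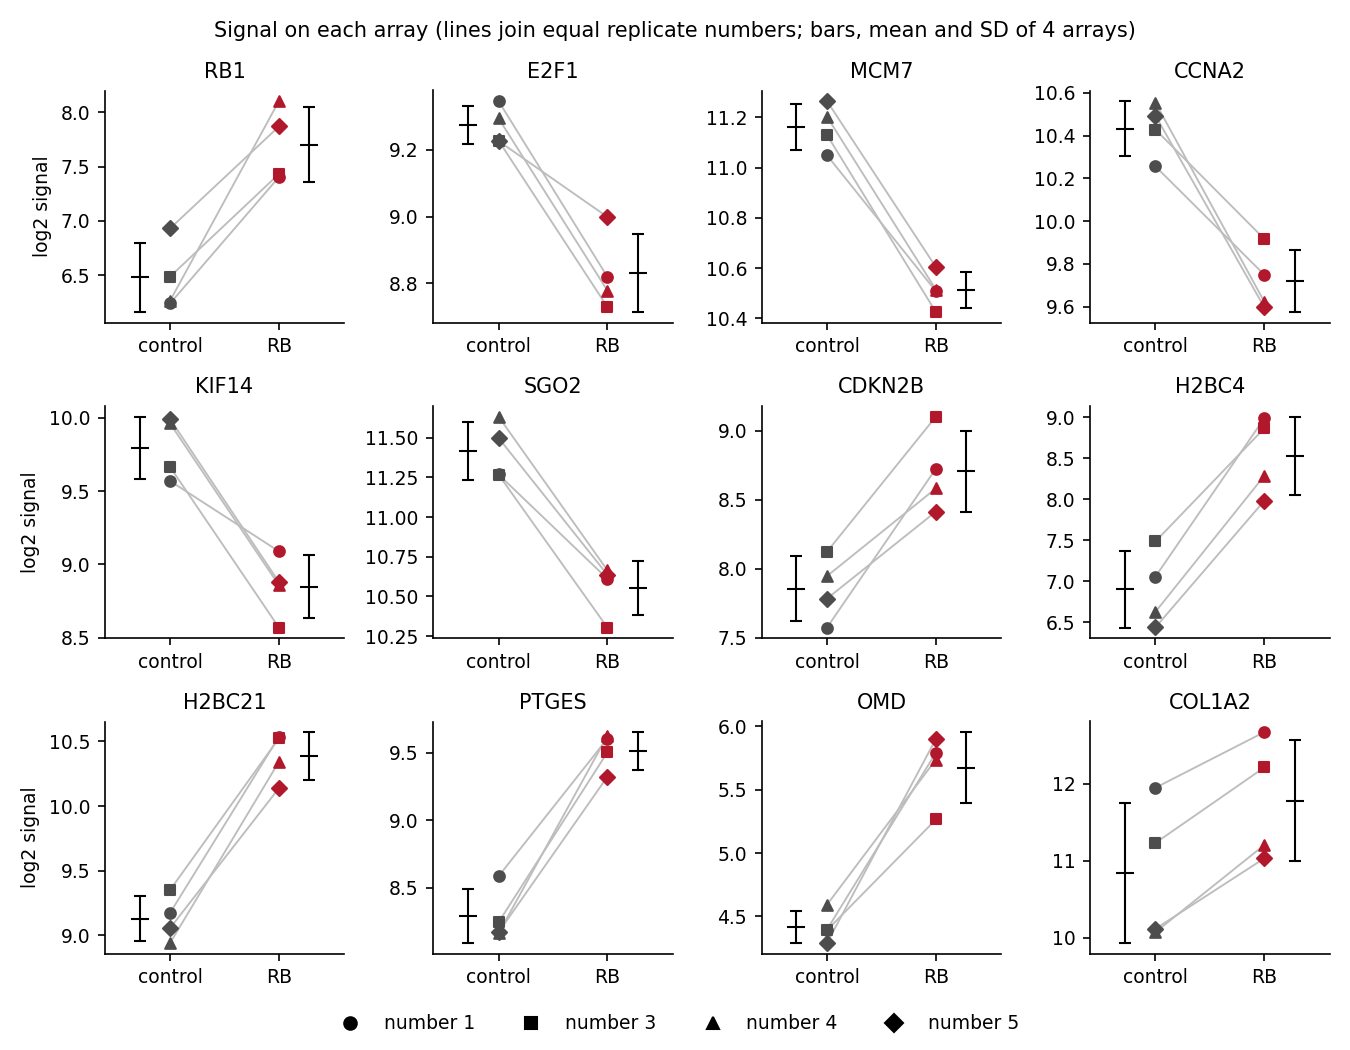
Log2 signal (vertical axis) of 12 genes in the 4 control and 4 RB arrays, with 1 point per array and a line joining arrays of the same replicate number. RB1, CDKN2B, the histone genes H2BC4 and H2BC21, PTGES and OMD lie higher in all 4 RB arrays, E2F1, MCM7, CCNA2, KIF14 and SGO2 lie lower, and for COL1A2 every line rises although the groups overlap.

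Mitotic genes fell in each list. Of 13 measured mitotic kinesins, 12 fell, with a median of -0.72. KIF14, a kinesin of the midbody, fell most of the genes whose groups did not overlap, reading 9.57, 9.67, 9.96 and 9.99 in control and 9.09, 8.57, 8.86 and 8.88 with RB. That was a fall of 0.95 ± 0.15, or 1.93-fold (adjusted p = 0.00083). KIF11, the motor that separates spindle poles, fell by 0.77 ± 0.16, and KIF23, a motor of the central spindle whose promoter is shown above, by 0.78 ± 0.14. CENPE, a motor at the kinetochore, fell by 0.89 ± 0.20 (adjusted p = 0.0101), which was lost with 2 of 16 arrays left out (adjusted p at most 0.0546, without control array 5).

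Of 31 measured genes of the kinetochore, which ties chromosomes to the spindle, 27 fell, with a median of -0.57. The count of 27 was 22 without the block and 21 without control array 1. SPC25 and NUF2 of the NDC80 complex fell by 0.86 ± 0.10 and 0.78 ± 0.11, the scaffold gene KNL1 by 0.78 ± 0.10 and CENPF by 0.76 ± 0.11. Of 18 mitotic kinases and checkpoint genes, 13 fell, with a median of -0.68 (10 without the block). TTK, the kinase that starts the spindle checkpoint, read 10.22, 10.23, 10.43 and 10.37 in control and 9.68, 9.56, 9.50 and 9.51 with RB, a fall of 0.75 ± 0.11 with no overlap. NEK2 and CDCA8 fell by 0.75 ± 0.13 and 0.75 ± 0.12, and Aurora A, AURKA, by 0.73 ± 0.10, although a dimmer AURKA probe set differed by 0.12.

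Among spindle and centrosome genes 26 of 29 measured members fell, with a median of -0.62. The count of 26 was 18 without the block and 18 without RB array 4. ASPM, a protein of spindle poles, and TROAP, a protein of spindle microtubules, both fell by 0.83, with errors of 0.13 and 0.09. TROAP was among the tightest, at 10.54, 10.46, 10.68 and 10.63 in control and 9.77, 9.73, 9.71 and 9.80 with RB. DEPDC1B fell by 0.79 ± 0.13, the centriole gene STIL by 0.77 ± 0.11 and NUSAP1, a microtubule protein of the spindle, by 0.69 ± 0.06 (adjusted p = 1.4e-05). NUSAP1 and UBE2C had the smallest p-values of the genes that fell.

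Genes of chromosome separation fell too. Of 14 measured genes of the anaphase-promoting complex, its regulators, securin and shugoshins, 8 fell. UBE2C, the ubiquitin-conjugating enzyme of that complex, read 12.97, 12.83, 12.95 and 12.90 in control and 12.34, 12.17, 12.12 and 12.18 with RB with the groups well apart (fall of 0.71 ± 0.06, adjusted p = 1.7e-05). CDC20, the activator of the complex, fell by 0.76 ± 0.10, its inhibitor FBXO5 by 0.72 ± 0.12, securin PTTG1 by 0.64 ± 0.07 and separase ESPL1 by 0.72 ± 0.10. SGO2, which protects cohesin at centromeres, read 11.27, 11.27, 11.63 and 11.50 in control and 10.61, 10.30, 10.66 and 10.64 with RB, a fall of 0.86 ± 0.09. In the condensin and cohesin list 10 of 18 fell, among them the condensin genes NCAPD2 by 0.79 ± 0.09, NCAPG by 0.72 ± 0.09 and NCAPH by 0.72 ± 0.11.

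Among the 20 largest falls without overlap were also genes outside the lists described above. MKI67, the Ki-67 proliferation marker, read 9.83, 10.07, 10.17 and 10.23 in control and 9.18, 9.13, 9.37 and 9.52 with RB, a fall of 0.77 ± 0.10. GAS2L3, a cytoskeletal linker used in cytokinesis, fell by 0.78 ± 0.11, the cytidine deaminase gene APOBEC3B by 0.77 ± 0.13 and the Polycomb-like gene PHF19 by 0.76 ± 0.09. TOP2A, the topoisomerase of mitotic chromosomes, fell by 0.78 ± 0.18 (adjusted p = 0.0114), lost with 1 of 16 arrays left out (adjusted p = 0.0597, without RB array 3). ARHGAP11A fell by 0.87 ± 0.25 (adjusted p = 0.0453), but the call was lost without the block (adjusted p = 0.139) and with 10 of 16 arrays left out (adjusted p at most 0.184, without RB array 4).

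DNA repair genes fell in part. Of 27 measured genes of the Fanconi pathway and homologous recombination, 14 fell, with a median of -0.39. The count of 14 was 10 without the block and 10 without control array 4. FANCI read 10.21, 10.08, 10.20 and 10.18 in control and 9.53, 9.56, 9.33 and 9.43 with RB, a fall of 0.70 ± 0.09 with no overlap. RAD51AP1 and MND1, which work with the recombinases, fell by 0.71 ± 0.15 and 0.71 ± 0.11, and the helicase gene BRIP1 by 0.69 ± 0.09. In mismatch and base excision repair 2 of 17 fell, MSH6 by 0.27 ± 0.06 and NEIL3 by 0.56 ± 0.15. Both were lost without the block (adjusted p = 0.0676 and 0.168), with MSH6 lost in 4 and NEIL3 in 7 of 16 fits with an array left out (adjusted p at most 0.0723 without RB array 4 and 0.12 without control array 5), and the list's count fell to 0 without control array 4. Of 15 checkpoint genes 5 fell (2 without the block, 3 without control array 1), among them H2AX, the histone variant phosphorylated at breaks, by 0.53 ± 0.06 (adjusted p = 6.2e-05).

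Counted once each, 305 genes were measured in the 16 cell cycle lists, of which 193 (63.3%) fell and 3 rose, against 3.47% and 3.61% of all genes. They made up 28.1% of all genes that fell. The shares of all genes take in 5072 genes with a mean under 5, of which 31 were called. Fitted alone, the 9644 genes with a mean of at least 7 gave 782 lower and 710 higher. In that fit 196 of 289 cell cycle genes fell. The shares of all genes are therefore a low yardstick for lists of bright genes. The count of 193 was 146 without the block, between 150 and 214 with each array left out, 63 with pairs 1 and 3 alone and 112 without pair 4. In bulk samples such as these, fewer cells of a type and less RNA per cell cannot be told apart.

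**Figure D3:**
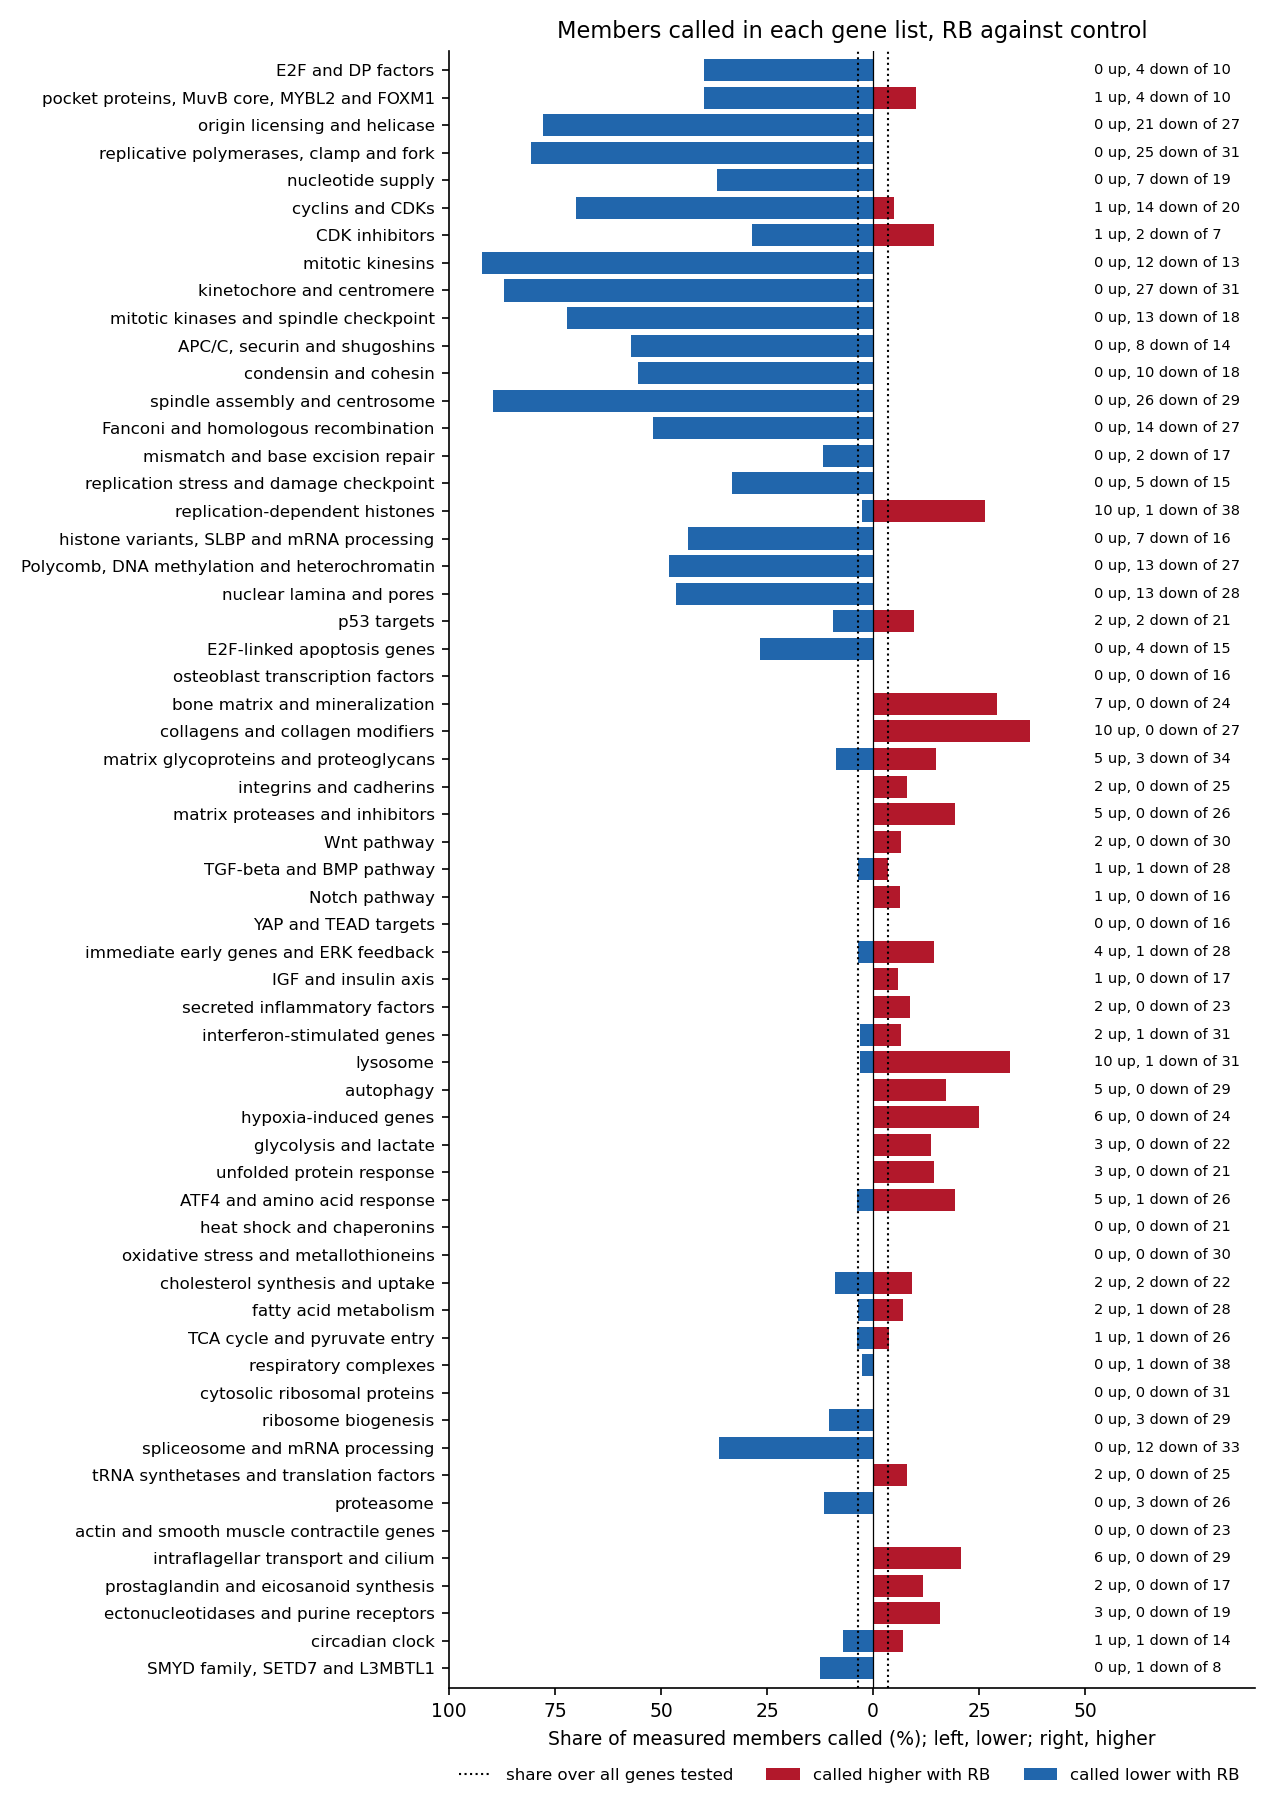
Percent of the measured members of each of 59 gene lists that were called higher (red, to the right) or lower (blue, to the left) with RB, with dotted lines at the 3.61% and 3.47% of all genes. The dotted lines include dim genes, of which few were called, and are low for lists of bright genes. Lists of replication and mitosis reach far to the left, and bars to the right are longest for bone matrix, collagens, lysosome and replication-dependent histones.

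Histone genes split. Of 38 measured replication-dependent histone genes, which make the histones of new chromatin and whose messages normally lack a poly(A) tail, 10 rose and 1 fell, with a median of 0.05 for the whole list. H2BC4 read 7.06, 7.49, 6.63 and 6.44 in control and 8.99, 8.87, 8.29 and 7.98 with RB. The lowest RB array was above the highest control array, and the rise was 1.63 ± 0.13, or 3.10-fold (adjusted p = 8.6e-06). H2BC21 read 9.17, 9.35, 8.94 and 9.06 in control and 10.54, 10.52, 10.34 and 10.14 with RB, again apart, a rise of 1.25 ± 0.11. H4C8 rose by 1.41 ± 0.13 and the linker histone gene H1-2 by 1.13 ± 0.11. The second probe set of H4C8 differed by 1.51. H2AC6, named after its values were seen because it is the neighbour of H2BC4, rose by 0.90 ± 0.13. The 2 genes lie on opposite strands of chromosome 6 with their starts 246 bases apart, so the H2BC4 window shown above covers the stretch between them. H2AC16, the 1 that fell, by 0.48 ± 0.14 (adjusted p = 0.0477), was also named after its values were seen, and its call was lost without the block (adjusted p = 0.122) and with 12 of 16 arrays left out (adjusted p at most 0.224, without control array 4). The 27 members not called ranged from -0.23 to 0.39. The count of 10 was 8 without the block, between 7 and 12 with each array left out and 4 with pairs 1 and 3 alone. Histone genes are near-identical copies of one another, and their probe sets can share targets.

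Histone variants and the factors of histone message processing gave 7 of 16 lower (4 without the block, 3 without control array 5). The variant gene H2AZ2 fell by 0.34 ± 0.07 and CASP8AP2, needed for histone gene expression in S phase, by 0.53 ± 0.10, with 0.11 in a dimmer probe set of CASP8AP2. Among 27 genes of Polycomb, DNA methylation and heterochromatin, 13 fell (8 without the block and 8 without control array 5). UHRF1, which brings the maintenance DNA methyltransferase to replicated DNA, read 11.61, 11.84, 11.76 and 11.77 in control and 11.02, 11.29, 11.06 and 11.09 with RB, a fall of 0.63 ± 0.08 with no overlap. ATAD2 and SUV39H1 fell by 0.65 ± 0.13 and 0.60 ± 0.09. HELLS fell by 0.69 ± 0.17 (adjusted p = 0.019), lost without the block (adjusted p = 0.0776) and with 4 of 16 arrays left out (adjusted p at most 0.0986, without RB array 4).

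The nuclear lamina and pores gave 13 of 28 lower (8 without the block and 8 without control array 4), with a median of -0.32. LMNB1, lamin B1, read 10.70, 10.83, 10.90 and 10.84 in control and 10.38, 10.23, 10.16 and 10.04 with RB, a fall of 0.62 ± 0.12. TMPO, which makes lamina-associated polypeptides, fell by 0.54 ± 0.08. LMNB2 and the lamin B receptor gene LBR each fell by 0.46, with errors of 0.07 and 0.10, and both calls were lost without the block (adjusted p = 0.0931 and 0.0642). Splicing genes gave 12 of 33 lower (7 without the block, 6 without control array 4), with a median of -0.17. SNRPA of the U1 particle fell by 0.49 ± 0.07, SNRPD1 by 0.37 ± 0.06 and SRSF7 by 0.37 ± 0.05.

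Few targets of p53, which SAOS cells lack, were called, with 2 of 21 higher and 2 lower, where all genes gave 3.61% and 3.47%. Of the 21, 19 lay above the median level of all genes. So few calls give no direction for the list. TP53INP1 rose by 0.95 ± 0.12 in its brighter probe set and differed by -0.13 in a dimmer one. Of 15 apoptosis genes linked to E2F, 4 fell (1 without the block, 2 without control array 4), among them CASP8AP2 and the caspase gene CASP2 by 0.28 ± 0.06 (adjusted p = 0.0071, and 0.203 without the block).

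Genes of bone matrix rose in part. Of 24 measured genes of bone matrix and mineralization, 7 rose and 17 did not pass, with a median of 0.19 (3 without the block, 4 without control array 4). OMD, osteomodulin, a proteoglycan of mineralized matrix, read 4.40, 4.39, 4.59 and 4.29 in control and 5.79, 5.26, 5.74 and 5.90 with RB. The groups were far apart on a dim probe set, with a rise of 1.26 ± 0.18 (adjusted p = 0.00056), and its second probe set differed by 0.60. SPARC, osteonectin, rose by 0.81 ± 0.09. SPP1, osteopontin, rose by 0.83 ± 0.14 at a low level, 5.05 to 5.52 in control, while its dimmer probe set differed by -0.004.

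COL1A2, a chain of the main collagen of bone, shows what the block does. It read 11.95, 11.23, 10.07 and 10.12 in control and 12.67, 12.22, 11.21 and 11.03 with RB. The groups overlapped because arrays 1 and 3 were high in both, yet every same-numbered pair rose, by 0.94 ± 0.09 (adjusted p = 2.1e-05, and 0.483 without the block). COL1A1, the gene of the other chain, was named after its values were seen. COL1A1 differed by 0.15 ± 0.07 and did not pass (adjusted p = 0.268). Its differences were 0.11, 0.36, -0.03 and 0.18 in pairs 1, 3, 4 and 5. PTH1R, the parathyroid hormone receptor, TNFSF11, the osteoclast factor RANKL, and BMP2 rose by 0.81 ± 0.21, 0.79 ± 0.18 and 0.52 ± 0.12. All 3 were lost without the block (adjusted p = 0.548, 0.138 and 0.198) and with 6, 3 and 4 of 16 arrays left out (adjusted p at most 0.13 without RB array 4, 0.0702 without control array 4 and 0.0886 without control array 5). TNFSF11 was dim, with a mean of 5.15 in the SMYD2 arrays. None of 16 osteoblast transcription factors was called by limma, and 1 was higher and 1 lower at an unadjusted p under 0.05.

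Other matrix genes rose beside these. Of 27 collagens and collagen modifiers, 10 rose, with a median of 0.28 (3 without the block, 4 without control array 5). COL12A1 and the procollagen protease gene ADAMTS2 rose by 0.72 ± 0.20 and 0.74 ± 0.19, and both were lost without the block (adjusted p = 0.338 and 0.488) and with 7 of 16 arrays left out (adjusted p at most 0.105 without control array 1 and 0.094 without RB array 4). COL6A2 differed by as much as COL12A1, 0.72 ± 0.23, and did not pass (adjusted p = 0.0751). In the list of matrix glycoproteins 5 of 34 rose and 3 fell (2 and 0 without the block, 2 and 0 without RB array 4). THBS2, a thrombospondin, read 11.14, 11.31, 11.01 and 10.92 in control and 11.59, 11.91, 11.49 and 11.45 with RB, a rise of 0.52 ± 0.07 with no overlap, and THBS3 rose by 0.61 ± 0.11. Tenascin N, TNN, outside the lists, rose by 1.12 ± 0.12.

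Among 26 matrix proteases and inhibitors, 5 rose (0 without the block, 2 without control array 4). PLAU, urokinase, read 7.84, 8.95, 7.95 and 7.91 in control and 8.69, 9.67, 8.70 and 8.69 with RB, array 3 being high in both groups. It rose by 0.78 ± 0.08 (adjusted p = 6.0e-05, and 0.275 without the block). ADAM12 rose by 0.51 ± 0.10, the integrin gene ITGA3 by 0.58 ± 0.09 and DKK3, a secreted relative of Wnt inhibitors, by 0.77 ± 0.09. Their calls were lost without the block too (adjusted p = 0.307, 0.271 and 0.114).

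Beside the histone genes, the largest rises were of genes of varied function. CRYBA2, a beta-crystallin known from the lens, read 5.97, 4.70, 5.30 and 4.77 in control and 7.82, 6.45, 6.81 and 6.73 with RB. The groups did not overlap, and the rise of 1.77 ± 0.14, or 3.40-fold (adjusted p = 8.6e-06), was the largest of all genes called. Of 7 lens markers measured it was the 1 called, and also the 1 with an unadjusted p under 0.05. PTGES, the inducible synthase of prostaglandin E2, had the smallest p-value of all genes. It read 8.59, 8.24, 8.16 and 8.17 in control and 9.60, 9.50, 9.63 and 9.32 with RB, a rise of 1.22 ± 0.09 (adjusted p = 5.5e-06). ENTPD3, an enzyme that splits extracellular ATP, rose by 1.38 ± 0.15, and clusterin, CLU, an extracellular chaperone, by 1.07 ± 0.10. In ENTPD3 control array 1, at 9.95, stood above the other controls, at 8.58 to 8.99, and below all RB arrays.

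Transporters and trafficking genes followed. SLC16A4, of the monocarboxylate transporter family, rose by 1.21 ± 0.14 on a dim probe set, at 4.75 to 5.45 in control. SLC17A7, a vesicular glutamate transporter, rose by 1.01 ± 0.15, and RAB27B, a GTPase of secretory vesicles, by 1.00 ± 0.15. EHD3, a protein of endosome recycling, rose by 1.06 ± 0.16. The drug exporter gene ABCC3 read 6.62, 7.36, 7.15 and 7.16 in control and 7.69, 8.19, 7.99 and 8.01 with RB, a rise of 0.90 ± 0.07, while 2 dimmer probe sets of the gene differed by 0.10 and -0.15. SCARA5, a ferritin receptor, rose by 1.30 ± 0.27 from 8.15, 7.56, 6.02 and 6.32 in control to 8.48, 8.21, 8.23 and 8.32 with RB. Its controls spread widely and its RB arrays did not, and the call was lost without the block (adjusted p = 0.144).

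Further large rises were IGDCC4, a surface protein of the immunoglobulin superfamily, by 1.21 ± 0.21, RCAN2, a regulator of calcineurin, by 1.12 ± 0.12, YPEL2 by 1.01 ± 0.11, DNAI3, a dynein chain, by 0.99 ± 0.11, and TARS3, a relative of threonyl-tRNA synthetase, by 0.91 ± 0.09. The DNAI3 probe set was dim, with a mean of 4.80 in the SMYD2 arrays. SRPX2, a secreted protein, rose by 0.87 ± 0.07 and the tubulin gene TUBA1A by 0.64 ± 0.06. TUBA1A was bright, at 12.56 to 13.07 in control and 13.32 to 13.54 with RB, with no overlap. LRRC15 and RFTN1 rose by 0.93 ± 0.13 and 0.83 ± 0.13 in their brighter probe sets, and differed by -0.01 and -0.04 in dimmer ones.

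Lysosomal genes rose in part. Of 31 measured, 10 rose and 1 fell, with a median of 0.19 (3 and 0 without the block, and 1 and 0 without control array 5). ASAH1, acid ceramidase, rose by 0.61 ± 0.09 from 9.67 to 9.81 in control to between 10.20 and 10.56 with RB, and a dimmer ASAH1 probe set differed by -0.021. The protease gene TPP1 rose by 0.61 ± 0.13 and the membrane protein gene LAMP2 by 0.45 ± 0.10, lost with 3 and 2 of 16 arrays left out (adjusted p at most 0.0575 without control array 4 and 0.0554 without control array 5). GUSB, beta-glucuronidase, named after its values were seen, fell by 0.33 ± 0.08 (adjusted p = 0.0207), lost without the block (adjusted p = 0.12) and with 5 of 16 arrays left out (adjusted p at most 0.0868, without control array 5). In autophagy 5 of 29 rose (3 without the block, 3 without control array 4), among them WIPI1, which binds forming autophagosomes, by 0.71 ± 0.11, BECN1 by 0.44 ± 0.08 (-0.057 in a dimmer probe set) and the receptor gene NBR1 by 0.43 ± 0.08 (adjusted p = 0.005, and 0.0795 without the block).

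Some genes of stress and metabolic lists rose. Among 24 genes induced by hypoxia 6 rose, with a median of 0.17 (4 without the block, 4 without control array 5). STC2, a secreted glycoprotein, read 8.36, 8.80, 8.61 and 8.55 in control and 9.59, 9.94, 9.12 and 8.87 with RB. The groups did not overlap, but pairs 1 and 3 rose by more than pairs 4 and 5, with a mean of 0.80 ± 0.13. EPAS1, the hypoxia factor HIF-2 alpha, rose by 0.67 ± 0.11, NDRG1 by 0.58 ± 0.07 and MXI1 by 0.43 ± 0.09. The list's median by pair was 0.31, 0.21, 0.05 and 0.01 for the numbers 1, 3, 4 and 5. Of 26 genes of the ATF4 and amino acid response 5 rose and 1 fell (2 and 0 without the block, 3 and 0 without control array 4), among them the amino acid transporter gene SLC7A5 by 0.34 ± 0.06 and ALDH1L2 by 0.78 ± 0.15 (adjusted p = 0.0039, and 0.0503 without the block). ALDH1L2 was dim, with a mean of 5.23 in the SMYD2 arrays. HERPUD1, of the unfolded protein response, rose by 0.53 ± 0.07, and the glycolytic gene ALDOC by 0.42 ± 0.08 (adjusted p = 0.0028, and 0.156 without the block).

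Beside the osteoblast transcription factors, lists with no call were cytosolic ribosomal proteins (31 measured), oxidative stress genes (30) and actin and contractile genes (23). Heat shock genes (21) and YAP and TEAD targets (16) had no call either. At an unadjusted p under 0.05, limma gave 0 higher and 1 lower of the ribosomal protein genes, 3 and 3 of the oxidative stress genes, 2 and 2 of the contractile genes, 0 and 3 of the heat shock genes and 1 and 1 of the YAP and TEAD targets. Cilium genes gave 6 of 29 higher, IFT20 by 0.62 ± 0.13 and BBS1 by 0.68 ± 0.15 among them, a count that was 2 without the block and 0 without RB array 4. IFT20 was lost with 1 and BBS1 with 3 of 16 arrays left out (adjusted p at most 0.0517 without RB array 4 and 0.0651 without control array 4).

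IL11, JUN and ENPP2 were called only with the block. IL11, a cytokine, read 10.08, 11.58, 10.14 and 10.22 in control and 11.05, 12.24, 11.01 and 11.05 with RB, array 3 being high in both groups, and rose by 0.83 ± 0.14 (adjusted p = 0.0016, and 0.437 without the block). JUN rose by 0.41 ± 0.08 (adjusted p = 0.0034, and 0.529 without the block). ENPP2, autotaxin, which makes lysophosphatidic acid, rose by 0.75 ± 0.16 (adjusted p = 0.0074, and 0.142 without the block). ALOX5AP, which serves leukotriene synthesis, rose by 0.59 ± 0.08 and was called without the block too (adjusted p = 0.0253).

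The block decided many calls. Of the 1399 genes, 585 were also called without the block (246 higher and 339 lower) and 814 only with it. FOXQ1, a forkhead factor, read 7.81, 9.11, 6.84 and 7.24 in control and 8.71, 9.74, 8.21 and 8.41 with RB. Its control values spread widely while each pair rose, by 1.02 ± 0.14 (adjusted p = 0.00044, and 0.434 without the block). PIK3CD and SORBS2 rose by 0.92 ± 0.13 and 0.90 ± 0.11 (adjusted p = 0.102 and 0.0876 without the block). SERPINI1 and CFD, complement factor D, rose by 0.98 ± 0.22 and 0.91 ± 0.21, lost without the block (adjusted p = 0.264 and 0.182) and with 3 and 4 of 16 arrays left out (adjusted p at most 0.0676 without control array 4 and 0.0706 without RB array 4). CCDC18, the 1 gene called with a fall of at least 1, read 8.30, 8.43, 8.40 and 8.34 in control and 8.35, 6.32, 7.52 and 7.11 with RB. Pair 1 did not fall and pair 3 fell most, and the call (-1.04 ± 0.30, adjusted p = 0.0463) was lost without the block (adjusted p = 0.0978) and with 11 of 16 arrays left out (adjusted p at most 0.163, without RB array 3).

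**Figure D4:**
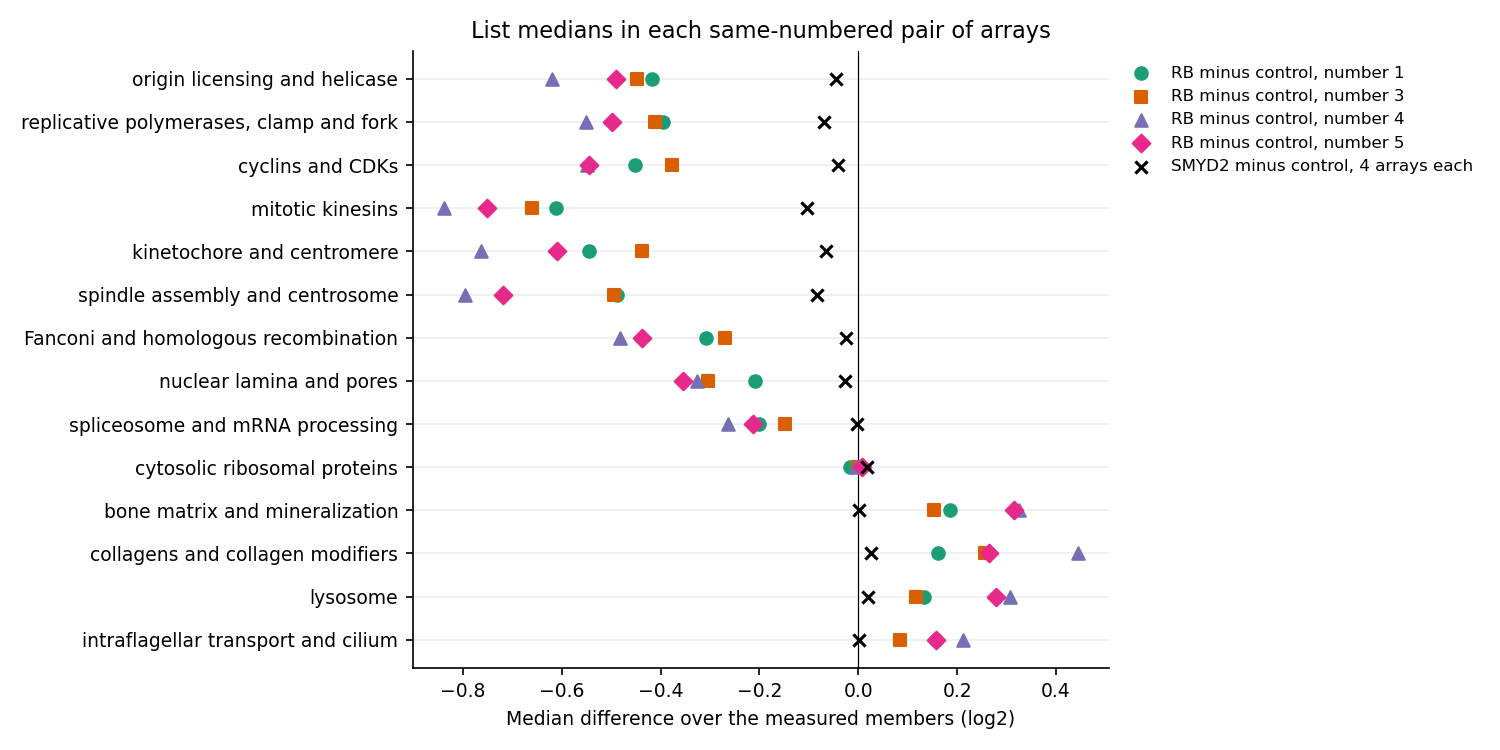
Median RB minus control difference (log2, horizontal axis) of 14 gene lists, 1 point for each same-numbered pair of arrays, with a cross for the median of SMYD2 minus control. The medians of the replication and mitosis lists lie below 0 in all 4 pairs, those of kinesins between -0.84 and -0.61, while the crosses lie near 0.

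Cells given SMYD2, also transfected, were set against the same 4 control arrays, so that both comparisons share them. The brightest SMYD2 probe set read 10.28 there and 10.16 in control (0.11 ± 0.07, adjusted p = 0.834), so the array does not check the SMYD2 label as RB1 does for RB, and the transfected gene was that of the mouse. Limma called 0 genes for SMYD2 against control with the block and 0 without it. An unadjusted p under 0.05 was found for 868 of the 19775 genes, no more than that threshold passes when no gene differs. Median differences for SMYD2 were -0.10 for kinesins, -0.06 for the kinetochore, -0.05 for origin licensing, 0.06 for replication-dependent histones and 0.03 for collagens, where RB gave -0.72, -0.57, -0.50, 0.05 and 0.28. H2BC4, PTGES, MCM7 and KIF14 were chosen for their differences between RB and control. The same RB arrays enter RB against SMYD2, so its p-values for these genes are no separate support. H2BC4 differed by -0.20 ± 0.13 with SMYD2, and RB exceeded SMYD2 there by 1.83 (adjusted p = 2.4e-06). PTGES differed by -0.01 ± 0.09 with SMYD2, and RB exceeded SMYD2 by 1.23 (adjusted p = 2.4e-06). MCM7 differed by 0.01 ± 0.09 with SMYD2 and was 0.66 lower with RB than with SMYD2 (adjusted p = 0.00022). KIF14 differed by -0.32 ± 0.15 with SMYD2, reading 9.08, 9.19, 9.80 and 9.85, and was 0.63 lower with RB than with SMYD2 (adjusted p = 0.0127). RB was not told apart from SMYD2 in SERPINI1, CFD, CENPE and ARHGAP11A, where SMYD2 differed from control by 0.51, 0.47, -0.33 and -0.41 (adjusted p for RB against SMYD2 = 0.226, 0.226, 0.0938 and 0.309). SMYD2 itself differed by -0.12 ± 0.07 between RB and control (adjusted p = 0.408). L3MBTL1, a reader of methylated lysine, differed by -0.02 ± 0.09 (adjusted p = 0.94), with a sign that turned when arrays were left out. Its dimmer probe sets differed by -0.33, -0.16, -0.02, 0.003 and 0.05. The exact permutation p was 0.0571 for each of -0.33 and -0.16, on control levels of 4.91 and 3.85. Of 8 measured genes of the SMYD family, SETD7 and L3MBTL1, 1 was called, SMYD5, lower by 0.27, and it was lost with 8 of 16 arrays left out.

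As a rough check of the labelled cell type, marker levels were set beside the median level of all genes, which compares different probe sets and does not show presence. Of 8 measured osteoblast markers 7 were above that median, and their mean was 10.73 to 11.31 in the control arrays and 11.02 to 11.49 in the RB arrays, with COL1A2 and SPP1 called higher. The other 6 osteoblast markers were not called. Markers of other cell types were mostly below the median level, with 2 of 9 epithelial, 0 of 7 endothelial, 0 of 7 myeloid, 0 of 6 lymphoid, 1 of 7 adipocyte, 2 of 6 chondrocyte, 1 of 7 muscle and 2 of 7 neuronal markers above it. None of these was called by limma, and 3 were higher and 1 lower at an unadjusted p under 0.05.

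A second probe set gave a partial check within the arrays. Of the 882 called genes that have one, 747 (84.7%) had the same sign in it, against 65.3% of 10523 genes in all. The share was 370 of 412 for genes that fell and 377 of 470 for genes that rose. Second probe sets are dimmer by the choice of the brightest, and RMA keeps no detection call, so a value near 0 in one does not tell a low signal from background.

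Across all genes, the E2F, CHR and CCAAT words marked in the promoters above were unevenly spread. A RefSeq promoter of 300 bases, 250 before and 50 after the start, was matched for 15384 of the 19775 genes, 571 of those that fell and 590 of those that rose. The E2F words were in 4.36% of all promoters, in 14.2% of those of genes that fell and in 3.73% of those of genes that rose. For the CHR word these shares were 11.9%, 24% and 9.15%, and for CCAAT 36.1%, 49.9% and 35.1%. For the octamer the shares lay close together, at 1.51%, 1.05% and 1.86%. An E-box, CACGTG, was in 8.9%, 9.11% and 11.9%, and a cyclic AMP element, TGACGTCA, in 2.67%, 3.5% and 3.39%. Both strands were searched.

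Lists of genes differed in which word they held. Origin licensing had an E2F word in 52.2% of 23 promoters and the CHR word in 4.35%, and polymerases and fork genes in 30.8% and 3.85% of 26. Kinesins had the CHR word in 69.2% of 13 promoters and an E2F word in 7.69%, and spindle genes in 69.2% and 19.2% of 26. Genes that fell and are in no cell cycle list, 409 with a promoter, held E2F words in 11% and the CHR word in 18.6%. Of 36 replication-dependent histone promoters 88.9% held CCAAT and 41.7% the octamer, against 1.51% of all promoters for the octamer. E2F words were in 30.6% of these histone promoters and the CHR word in 33.3%, against 4.36% and 11.9% of all promoters. These are counts of letters in a fixed window, with no test, and say nothing of binding in these cells.

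**Figure D5:**
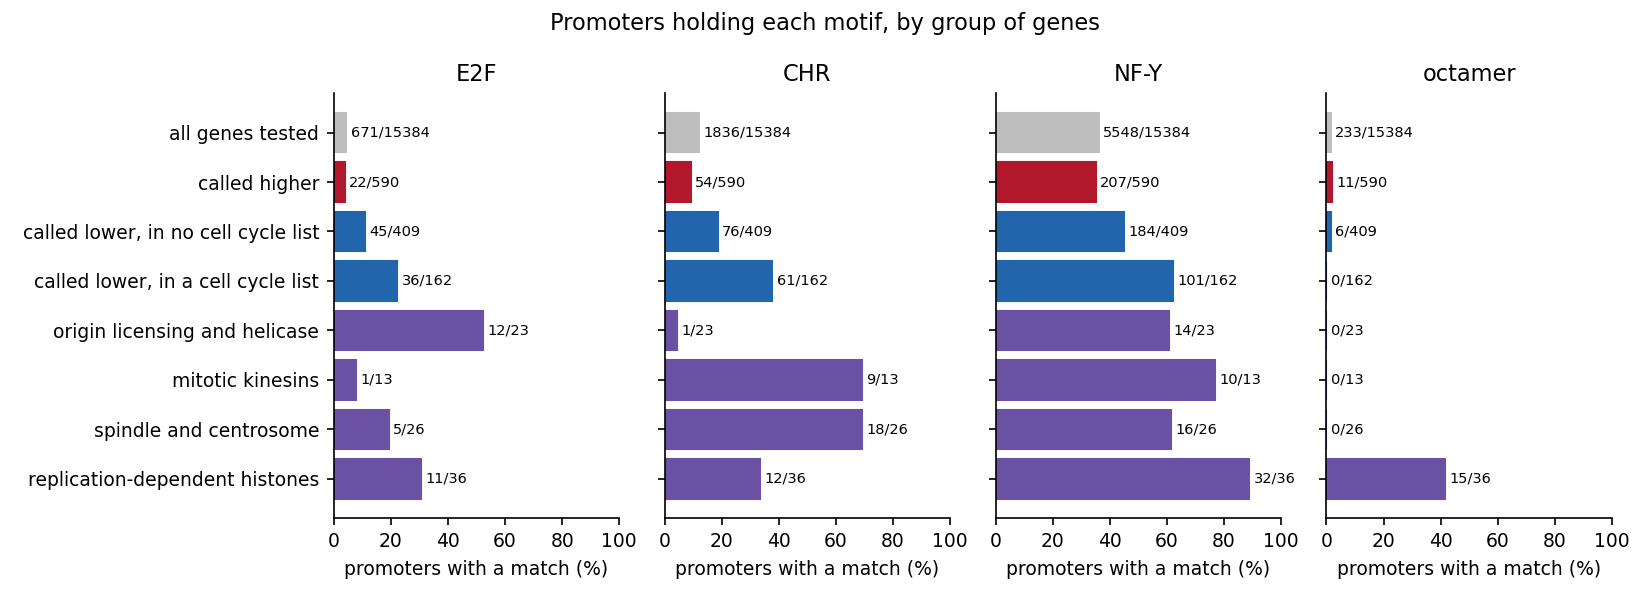
Percent of promoters (horizontal axis) that hold each of 4 motifs, for all genes tested (gray), genes called higher (red), genes called lower in or outside the cell cycle lists (blue) and 4 gene lists (purple), with counts beside the bars. The E2F words are most frequent in origin licensing (52.2%) and the CHR word in kinesins and spindle genes (69.2% each).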

How the data were processed

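RNA of 16 samples of SAOS cells was hybridised to 1 kind of Affymetrix expression array, 1 sample per array, in 4 groups of 4. The deposited values are log2 signals made with RMA, per the submitters' processing notes, which give no version. RMA corrects background, equalizes the distributions of the arrays and summarizes the probes of each set. The sources used here do not state whether RMA was run on the 16 arrays jointly. Array medians lay between 5.59 and 5.64, and arrays of 1 group correlated at 0.981 to 0.998. The number of arrays limits the precision.

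Of 54675 probe sets, 41097 carried 1 symbol in the platform annotation, and the probe set with the highest mean over the 16 arrays stood for each of 19775 genes. The remaining probe sets, with no single symbol, were fitted separately. The log2 values of all 16 arrays were fitted in R 4.3.3 using limma 3.58.1 (lmFit, 4 group means and the replicate number as a block, 9 residual degrees of freedom, eBayes with a trend). P-values were two-sided with Benjamini-Hochberg adjustment over all genes, and a gene was called at an adjusted p under 0.05. Adjusted p-values are from limma throughout.

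The replicate numbers were taken to pair RB and control arrays, since the deviations of every same-numbered pair from the group means correlated above 0.1 (lowest 0.188). Control array 5 and RB array 4 correlated more closely (0.315), and the labels do not say what the numbers mark. Gene lists (59, with 10 more of cell type markers) carry no test and are given by counts and medians. The comparison, the lists and the genes named were chosen with earlier results of these data known.

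Genes named are RB1, SMYD2 and L3MBTL1, the 20 largest called changes each way with no overlap and 1 sign in all pairs, the 10 smallest p-values, up to 4 members of each list with the largest difference, all members where 8 or fewer were called, the 8 largest differences called only with the block, and 5 genes whose second probe set had the opposite sign. The rule gave 303 genes, and the text names 153 genes besides SMYD5, RBL2 and COL1A1, mostly those whose call held with any 1 array left out, including the few said to be chosen after their values were seen. Alternatives covered the block, the samples fitted, the scaling, the spread model, array weights, dim genes, the choice of probe set and each array and number left out. Promoters came from RefSeq (GRCh38.p14), matched by symbol. Figures were drawn with matplotlib 3.10.9.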

Additional observations from a re-analysis of the deposited data

Results flagged for a closer look

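Within each group of 4 arrays, a gene's highest or lowest array was picked out when its distance to the nearest of the others took up more of the group's range than Dixon's critical value for 4 arrays. This was done for 306 groups, the control and RB arrays of 153 genes, and it picked out 26, where chance picks out about 1 in 20 groups. Values are log2 signals.

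Control array 1 stood apart in ASF1B at 9.79, DUT at 12.9, AURKA at 11.1, RAD51AP1 at 10.3, MSH6 at 11.6, CASP8AP2 at 10.2, CASP2 at 11.6, PTH1R at 9.70, NDRG1 at 10.6, ALDOC at 9.10 and ENPP2 at 12.5. For DUT and ALDOC the RB array of the same number stood apart on the same side, at 12.5 and 9.63. Control array 3 stood apart in STIL at 9.96, BMP2 at 8.64, PLAU at 8.95, IL11 at 11.6, EPAS1 at 11 and CCND1 at 5.54. RB array 3 stood apart on the same side in PLAU at 9.67 and IL11 at 12.2, and it also stood apart in SGO2 at 10.3, PIK3CD at 10.6 and ENPP2 at 12.1. Control array 5 stood apart in SLC16A4 at 4.75 and YPEL2 at 7.13.

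Outside the genes, 124 of 13578 probe sets with several gene symbols or none were called between RB and control by limma, 65 higher and 59 lower. Their differences reached 1.66 and -1.10, and no gene is named from them.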

How the results depend on the processing

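The count of 1399 genes was 585 without the replicate block, 967 with the number as a random effect, 203 with the numbers 1 and 3 alone, 3660 with 4 and 5 alone, 3033 with array weights and 659 at an adjusted p under 0.01. It ranged from 727 (without RB array 4) to 2141 (without SMYD2 array 1) with 1 array left out, being 764 and 755 without control arrays 4 and 5, and from 346 (without number 4) to 1996 (without number 1) with a number left out, being 745 and 597 without numbers 3 and 5. All 585 genes called without the block are among the 1399. Rescaling, another spread model, filters on dim genes and another choice of probe set gave 1025 to 1557. The 193 cell cycle genes that fell were 63 with the numbers 1 and 3 alone, 146 without the block, 150 to 214 with 1 array left out and 112 to 211 with a number left out. The 10 replication-dependent histone genes that rose were 4 with the numbers 1 and 3 alone, 7 to 12 with 1 array left out and 6 to 10 with a number left out. Why the pairs differ was not tested. Taking probe sets without a letter suffix first turned the sign of RB1 (-0.046), ABCC3 (-0.15), CHAF1A (0.035), AURKA (0.12), CASP8AP2 (0.11), ASAH1 (-0.021) and BECN1 (-0.057), since a dimmer probe set then stood for the gene. L3MBTL1, at -0.02, was 0.14 with the numbers 1 and 3 alone, -0.09 to 0.04 with 1 array left out and -0.092 to 0.059 with a number left out. Of 150 named genes that were called, 51 kept sign and call in all settings in which they were measured, 126 kept the call with each array left out and 35 lost it without the block. The genes named were mostly chosen for keeping the call with any 1 array left out. The 126 therefore follows in part from that choice and does not describe the 1399 called genes. A dim gene's change is limited by signal near background, since RMA gives no detection call.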
